A study of Mus musculus with 60 samples.

Results

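The 42 genes described here encode proteins that start, carry out and supply DNA replication, other than the subunits of the MCM2-7 helicase. They were taken from a list of gene symbols and not by a rule on measured values, but earlier results of these data were known when they were chosen. Each symbol matched 1 of the 55487 genes in the count tables. By role, 9 of them license origins, 7 activate the helicase or fire origins, 6 form the sliding clamp and its loader, 7 are primase and polymerase subunits, 3 form the RPA complex, 4 stabilise or organise the fork, 2 remove flaps and join fragments, and 4 supply nucleotides.

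RNA was sequenced from mouse embryonic stem cells (mESCs) of the line E14JU in 20 groups of 3 libraries. All cells carried POLE4-dTAG, a fusion of the polymerase epsilon subunit POLE4 to a degron, on a background of wild-type MCM2 or of MCM2-2A, a mutation in the histone-binding part of MCM2. Cells were given DMSO (Ctrl, and Ctrl MCM2-2A on the mutant background) or 1 µM dTAG, which triggers loss of the tagged protein (dPOLE4, and dPOLE4 MCM2-2A). After 24 h of either treatment in serum with LIF, cells were collected (T0) or moved to medium with retinoic acid (RA) and without LIF. The moved cells were collected 12 h (T12), 24 h (T24) or 60 h (T60) later, and a separate set was treated for 96 h without RA (96h). RA, the loss of LIF and time in culture changed together, so their parts in the comparisons of RA times with T0 cannot be told apart. The titles and time fields of the samples give T12, T24 and T60, while the treatment text of the same samples lists another set of RA times, and the titles were followed here. Each background was 1 edited clone, so the MCM2 mutation and differences between clones cannot be told apart. The treated cells were compared with DMSO-treated cells of the same clone, so the tag itself was present in every group.

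Replication of a chromosome begins long before DNA is copied. The origin recognition complex, with CDC6 and CDT1, loads inactive MCM2-7 rings on DNA in G1, and geminin blocks CDT1 later in the cycle. At S phase entry, TICRR and other factors bring CDC45 and the GINS complex to the rings, which become active helicases with the help of MCM10. Polymerase alpha with primase lays down primers, RFC loads the PCNA clamp, polymerase delta extends, RPA covers single-stranded DNA, and FEN1 and LIG1 finish the lagging strand. mESCs have a short G1 and spend much of their cycle in S phase, and many of these genes are transcribed periodically in the cycle. In RNA from whole cultures, fewer cells expressing a gene and less of its RNA per cell cannot be told apart.

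All 42 genes had enough reads to be tested in every comparison, and the lowest count of any of them in any library was 91. Libraries held 10461077 to 46609151 counts in the RA experiment and 7126100 to 23598266 in the 96h experiment, and the 42 genes took 0.349% to 0.543% of the counts of a library. The stem cell label was checked at T0. The summed level of 8 pluripotency markers was 3572 to 3704 CPM (counts scaled to library size) in Ctrl, against 76.7 to 93.8 for 4 trophoblast markers and 51.0 to 65.0 for 5 fibroblast markers. Pole4 RNA in Ctrl and dPOLE4 at T0 was 52.4 ± 2.28 and 52.4 ± 4.92 CPM (mean ± SD, n = 3), which does not check the treatment since dTAG removes protein. Genes are called differentially expressed (DE) where the Benjamini-Hochberg adjusted p from edgeR's quasi-likelihood test was under 0.01 and the log2 fold change exceeded 0.58 in size. Fold changes are given as log2 ± SE, values per library are CPM in the order of replicates 1, 2 and 3, and adjusted p-values cover all genes tested in that comparison.

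In Ctrl cells at T0 the replication genes spanned a wide range of levels. Per kilobase of exon, Pcna, the sliding clamp, was the highest of the 42 at 119 CPM per kb, followed by Rrm2, the small subunit of ribonucleotide reductase, at 88.2, Rpa1, the large RPA subunit, at 83.1, Pold2, an accessory subunit of polymerase delta, at 73.9, and Lig1, the replicative DNA ligase, at 70.2 CPM per kb. At the low end stood Wdhd1, which ties polymerase alpha to the helicase, at 6.24 CPM per kb, Orc4 at 6.12, Prim2, the large primase subunit, at 5.96, and the GINS subunit Gins3 at 5.28. Subunits of 1 complex were thus not at 1 level, with Gins4 at 55.2 CPM per kb beside Gins3 at 5.28. In CPM the means were 287 ± 6.98 for Pcna, 244 ± 9.49 for Rrm2, 464 ± 18.2 for Rpa1 and 14.3 ± 0.818 for Gins3 (SD, n = 3). Pcna and Tyms have pseudogenes named after them in the annotation, and because reads that map to several places were kept by the counting, part of their counts is uncertain. Pseudogenes of the members under other names were not looked for. Exons of Orc2, Fen1, Gins2 and Rfc2 have the longest overlaps with a gene on the opposite strand (Nif3l1, Gm10143, Gse1 and Lat2). Shorter overlaps of this kind are found for Orc1, Orc4, Orc6, Cdc45, Ticrr, Rfc4, Rfc5, Wdhd1, Lig1 and Tk1. Exons of Orc5 and Rpa1 share a short stretch with a gene on the same strand. The libraries keep the strand, but whether the counting used it is not given in the sources used here, so reads of overlapping genes may have been mixed.

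The genes that the results turn on are all protein-coding and were placed on mm10 by the annotation. Ticrr (ENSMUSG00000046591) is at chromosome 7, 79660196 to 79698148 on the + strand, Mcm10 (ENSMUSG00000026669) at chromosome 2, 4989714 to 5012791 on the - strand, and Orc1 (ENSMUSG00000028587) at chromosome 4, 108579423 to 108614833 on the + strand. Pcna (ENSMUSG00000027342) is also on chromosome 2, at 132249162 to 132253314 on the - strand. Rpa1 (ENSMUSG00000000751) and Pold2 (ENSMUSG00000020471) are both on chromosome 11, at 75298166 to 75348324 and at 5872180 to 5878292, each on the - strand, and Rrm2 (ENSMUSG00000020649) is at chromosome 12, 24708241 to 24714146 on the + strand. The positions of Wdhd1 and its neighbours are taken up with the MCM2-2A comparison.

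The first comparison followed Ctrl cells out of the pluripotent state in RA. After 12 h, 1 of the 42 genes was DE, Rpa1, which rose. By 24 h, Rpa1 was higher still and 4 genes of origin licensing and firing, Ticrr, Mcm10, Orc1 and Orc5, had fallen. After 60 h, 16 genes were lower, from every role group but flap removal and ligation, and none was DE higher. The 3 comparisons share the T0 libraries.

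At T12, 11.3% of all genes tested were DE, beside 1 of the 42 members. Rpa1 stood at 469, 443 and 478 CPM at T0 and 789, 778 and 801 at T12, a rise of 0.77 ± 0.05 (adjusted p = 4.81e-07). Every T12 library was far above every T0 library. The members with the next lowest adjusted p did not reach the fold cutoff. Cdc45, the helicase cofactor, was at 50.8, 52.0 and 53.3 CPM at T0 and 68.2, 64.6 and 67.4 at T12 (0.36 ± 0.06, adjusted p = 0.000416). Orc1, the large subunit of the origin recognition complex, was at 93.3, 88.9 and 98.4 and 70.4, 59.3 and 71.3 CPM (-0.48 ± 0.07, adjusted p = 0.000418). Cdc45 was thus above its T0 range and Orc1 below it in all 3 T12 libraries. By the adjusted p alone, 4 members were higher and 3 lower, against 20.1% of all genes in either direction. The 42 genes were split, 22 higher and 20 lower, with a median log2 fold change of 0.01, the same as that of all genes tested.

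At T24, 5 of the 42 were DE, and 4 of these were lower, against 21.8% of all genes DE and 8.27% DE lower. Ticrr, which recruits CDC45 to origins, was at 198, 221 and 244 CPM at T0, 183, 178 and 199 at T12 and 129, 140.1 and 139 at T24 (-0.70 ± 0.06, adjusted p = 3.52e-07). Mcm10, which is needed for helicase activation and is not a subunit of the MCM2-7 ring, was at 224, 240.0 and 242 CPM at T0, 204, 209.7 and 202 at T12 and 147, 148 and 158 at T24 (-0.64 ± 0.04, adjusted p = 2.04e-08). For both genes every T24 library was below every T0 and T12 library. Orc1 was at 60.9, 58.9 and 61.3 CPM at T24 (-0.63 ± 0.05, adjusted p = 9.86e-08), and Orc5, another subunit of the origin recognition complex, was at 34.8, 32.1 and 41.2 CPM against 54.9, 56.1 and 58.8 at T0 (-0.65 ± 0.07, adjusted p = 4.07e-06). The Orc5 change missed the fold cutoff, at -0.58, when Ctrl T24 replicate 2 was left out. Rpa1 reached 884, 856 and 878 CPM at T24 (0.92 ± 0.04 against T0, adjusted p = 1.73e-10), its highest level in the series of times. By the adjusted p alone, 18 members were lower and 4 higher, against 42.7% of all genes in either direction.

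**Figure D1:**
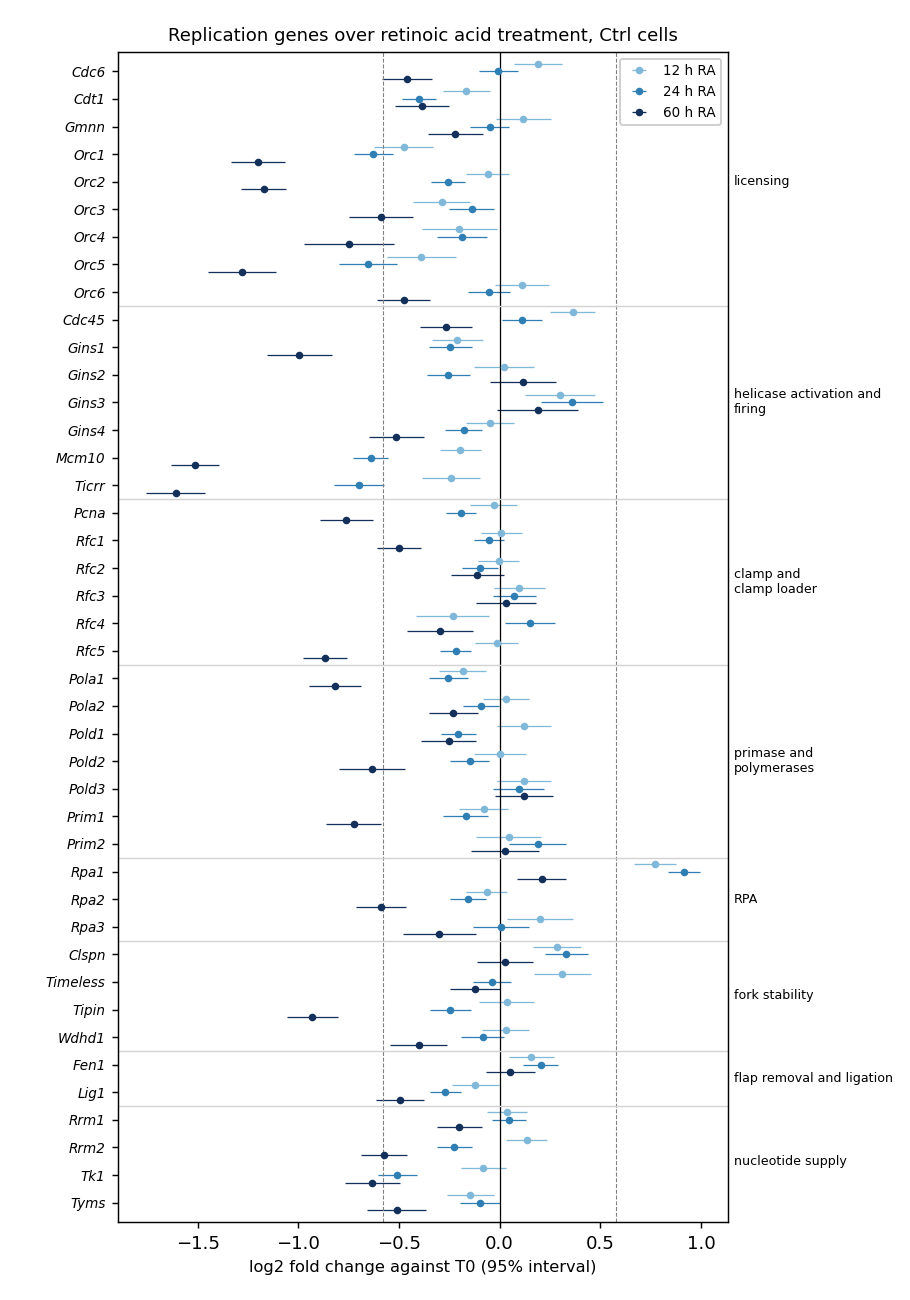
Log2 fold change against T0 in Ctrl cells (horizontal axis) of the 42 genes, grouped by role, after 12 h, 24 h and 60 h of RA, with bars for the 95% interval of the fitted fold change from 3 libraries at each time. Most genes lay near 0 at 12 h and 34 of 42 lay below it at 60 h, with Ticrr at -1.61 and Mcm10 at -1.51, while Rpa1 was at 0.77, 0.92 and 0.21.

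At T60, 16 of the 42 were DE and all 16 were lower, against 50.6% of all genes DE and 23.7% DE lower. The median of the 42 was -0.49, beside -0.01 for all genes tested, and 34 of 42 were below their T0 level. By the adjusted p alone, 31 members were lower, against 32.6% of all genes, and 1 was higher.

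Among the licensing genes, 5 of 9 fell and the remaining 4 lay between -0.48 and -0.22. Orc5 went from 54.9, 56.1 and 58.8 CPM at T0 to 21.6, 26.8 and 22.8 at T60 (-1.28 ± 0.09, adjusted p = 3.52e-09). Orc1 went to 43.1, 41.5 and 38.8 CPM (-1.20 ± 0.07, adjusted p = 4.83e-10). Orc2 went from 146, 146 and 152 to 68.1, 65.3 and 66.3 CPM (-1.17 ± 0.06, adjusted p = 9.10e-11). All T60 libraries of these origin recognition subunits were below every T0 library by a wide margin. Orc4 and Orc3 fell less, by 0.75 and 0.59 on the log2 scale, and both rested on the choice of libraries, since Orc4 stood at -0.58 without Ctrl T60 replicate 1 and Orc3 at -0.50 without the same library and -0.55 without Ctrl T0 replicate 2. Orc6 (-0.48), the helicase loaders Cdc6 (-0.46) and Cdt1 (-0.38), and Gmnn, which encodes geminin (-0.22), did not reach the fold cutoff, and Gmnn was the only licensing gene whose adjusted p was above 0.01. The ORC subunits therefore made up all the DE licensing genes.

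Helicase activation and firing held the 2 largest changes. Ticrr went to 76.0, 69.5 and 74.8 CPM (-1.61 ± 0.08, adjusted p = 5.30e-11) and Mcm10 to 82.8, 86.6 and 81.9 CPM (-1.51 ± 0.06, adjusted p = 1.05e-11). Each was lower at T60 than in any library at T0, T12 or T24. Gins1, a GINS subunit, went from 37.5, 37.9 and 37.6 to 20.1, 17.3 and 19.9 CPM (-0.996 ± 0.08, adjusted p = 3.41e-08). Of its partners in the same 4-subunit complex, Gins4 was at -0.51, past the adjusted p and short of the fold cutoff, and Gins2 and Gins3 were at 0.12 and 0.19, past neither. Cdc45, which joins them in the active helicase, was at -0.27.

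In the clamp and clamp loader group, Pcna went from 286, 280.5 and 294 to 189, 156 and 169 CPM (-0.76 ± 0.07, adjusted p = 6.87e-08) and Rfc5, a small subunit of the loader, from 182, 178 and 179 to 102, 95.8 and 102 CPM (-0.87 ± 0.06, adjusted p = 1.98e-09). The 4 other loader subunits ranged from -0.50 (Rfc1) to 0.03 (Rfc3). Among primase and polymerase genes, Pola1, the catalytic subunit of polymerase alpha, went from 101, 114 and 108 to 59.5, 64.3 and 61.9 CPM (-0.82 ± 0.07, adjusted p = 2.86e-08). Prim1, the small primase subunit, and Pold2 also fell, by 0.72 and 0.63 on the log2 scale, while Pold1, the catalytic subunit of polymerase delta, was at -0.25, Pola2 at -0.23, Prim2 at 0.02 and Pold3 at 0.12. Pold2 dropped to -0.54 and out of the call without Ctrl T60 replicate 2.

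In the fork group Tipin, the partner of TIMELESS in the fork protection complex, went from 103, 100.3 and 97.4 to 51.0, 52.7 and 56.6 CPM (-0.93 ± 0.06, adjusted p = 3.97e-09). Timeless itself was at -0.12 and Clspn, which works with them in checkpoint signalling, at 0.03, neither past the adjusted p, and Wdhd1 was at -0.40. Subunits of RPA moved apart. Rpa2 fell by 0.59 on the log2 scale (and was at -0.53 without Ctrl T60 replicate 2), Rpa3 was at -0.30, and Rpa1, after its rise at T12 and T24, was back at 554, 508 and 567 CPM, 0.21 ± 0.06 above T0 (adjusted p = 0.00695, short of the fold cutoff). Of the nucleotide genes, Tk1, the thymidine kinase of S phase, fell by 0.63 on the log2 scale, and Rrm2 (-0.57), Tyms, the thymidylate synthase (-0.51), and Rrm1 (-0.20) were past the adjusted p only. Lig1 was at -0.49 and Fen1, the flap endonuclease, at 0.05.

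**Figure D2:**
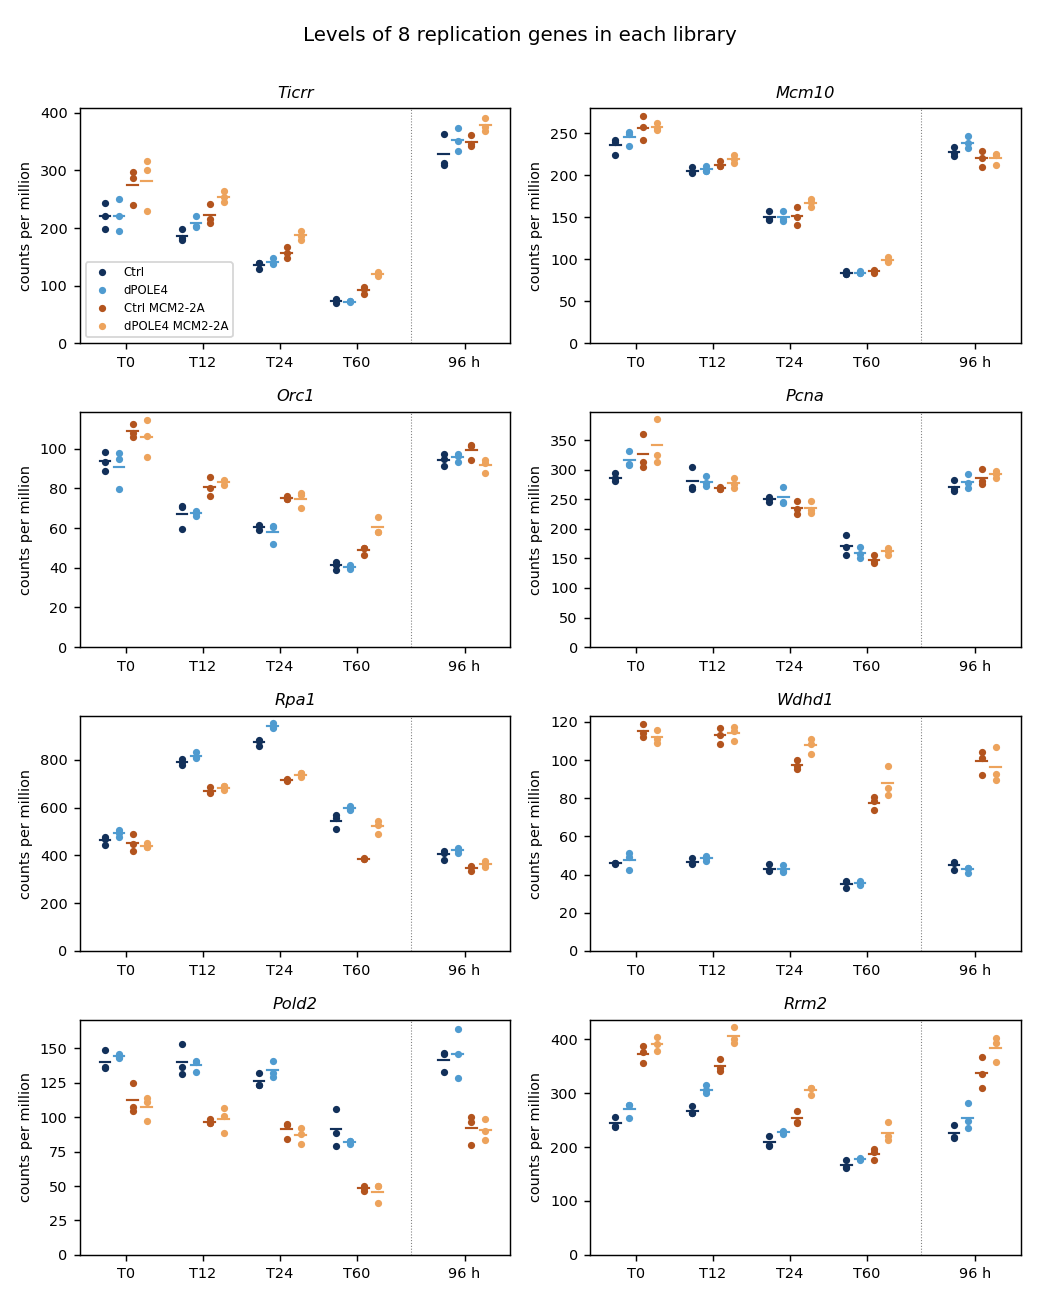
Level in CPM (vertical axes, each starting at 0) of 8 replication genes in all 60 libraries by time and condition, with a dot per library and lines for group means of 3. Ticrr lay between 69.5 and 124 CPM at T60 and Mcm10 between 81.9 and 103, Rpa1 peaked at T12 and T24, and Wdhd1 was higher in both MCM2-2A conditions at every time.

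The same T60 against T0 comparison was made in dPOLE4, Ctrl MCM2-2A and dPOLE4 MCM2-2A cells. The 4 comparisons use different libraries but share the background clones, and their values are set side by side. In dPOLE4, 19 of 42 were DE, all lower (background 22.5% DE lower), with a median of -0.50. Ctrl MCM2-2A had 22 DE, all lower (background 21.2%), with a median of -0.59. In dPOLE4 MCM2-2A, 17 were DE lower (background 19.3%) and 1 higher (background 23.0%), with a median of -0.50. The medians of all genes tested lay between -0.03 and -0.00 in these 3 comparisons.

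DE lower in each of the 4 conditions were 12 genes: Ticrr, Mcm10, Orc1, Orc2, Orc5, Tipin, Pold2, Pcna, Rfc5, Prim1, Rpa2 and Tk1. The 12 cover every role group but flap removal and ligation. Prim1 and Rfc5 were near the fold cutoff in dPOLE4 MCM2-2A and lost their call there in 8 alternative fits each. A further 13 were DE lower in 1 to 3 of the conditions and 17 in none. Lower than at T0 in all 4 conditions, past the test or not, were 34 genes, and Gins3 was the only gene above its T0 level in all 4. How many of all genes tested met the same rules in all 4 conditions was not counted. Whether these shared counts exceed those of other genes therefore cannot be told, and only the background shares per condition are given.

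Ticrr in dPOLE4 went from 195, 221 and 249.8 CPM at T0 to 72.7, 70.9 and 72.5 at T60 (-1.65 ± 0.08, adjusted p = 1.00e-10). On the mutant background, Ctrl MCM2-2A went from 239.7, 287 and 297 to 97.0, 94.2 and 85.4 CPM (-1.56 ± 0.09, adjusted p = 4.07e-09) and dPOLE4 MCM2-2A from 229, 301 and 317 to 120.2, 124 and 117 CPM (-1.26 ± 0.12, adjusted p = 1.47e-06). Ticrr started at or above the Ctrl level in MCM2-2A cells and ended highest in dPOLE4 MCM2-2A. Mcm10 in dPOLE4 went from 235, 249.6 and 252 to 83.6, 85.8 and 83.1 CPM (-1.57 ± 0.05, adjusted p = 3.00e-12). In Ctrl MCM2-2A it went from 270.2, 242 and 258 to 87.4, 85.4 and 83.5 CPM (-1.58 ± 0.06, adjusted p = 1.63e-10), and in dPOLE4 MCM2-2A from 262, 253 and 257 to 98.2, 103 and 96.1 CPM (-1.40 ± 0.08, adjusted p = 1.98e-08). The Mcm10 end points of the 4 conditions lay close together, from 81.9 to 103 CPM.

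The ORC subunits behaved alike in direction. Orc1 was at 40.2, 41.6 and 39.2 CPM at T60 in dPOLE4 (-1.19 ± 0.08, adjusted p = 3.65e-09), 46.3, 49.9 and 49.97 in Ctrl MCM2-2A (-1.15 ± 0.06, adjusted p = 3.17e-09) and 57.98, 58.1 and 65.7 in dPOLE4 MCM2-2A (-0.83 ± 0.10, adjusted p = 9.35e-06). Orc2 was at 71.7, 71.5 and 72.8 CPM in dPOLE4 (-1.02 ± 0.05, adjusted p = 3.34e-10), 74.3, 76.7 and 73.5 in Ctrl MCM2-2A (-1.27 ± 0.06, adjusted p = 7.07e-10) and 79.5, 81.5 and 92.1 in dPOLE4 MCM2-2A (-1.05 ± 0.09, adjusted p = 4.97e-07). Orc5 was at 23.4, 25.0 and 23.2 CPM in dPOLE4 (-1.05 ± 0.10, adjusted p = 1.90e-07), 23.6, 26.1 and 25.6 in Ctrl MCM2-2A (-1.14 ± 0.07, adjusted p = 1.12e-08) and 21.7, 21.8 and 30.3 in dPOLE4 MCM2-2A (-0.99 ± 0.14, adjusted p = 5.54e-05). For Orc5 the third dPOLE4 MCM2-2A library stood above its 2 partners, and the same library stood apart for Tipin and Pold2. Without it, 21 members were DE in that condition instead of 18, while 15 were DE without T0 replicate 1 or without T60 replicate 1.

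Pcna at T60 was at 151, 169.6 and 157 CPM in dPOLE4 (-1.01 ± 0.06, adjusted p = 6.80e-10), 155, 143 and 145 in Ctrl MCM2-2A (-1.13 ± 0.07, adjusted p = 1.44e-08) and 168, 162 and 155 in dPOLE4 MCM2-2A (-1.10 ± 0.09, adjusted p = 6.82e-07). Tipin was at 47.5, 51.3 and 52.2 CPM in dPOLE4 (-0.92 ± 0.10, adjusted p = 1.08e-06), 43.8, 47.9 and 47.1 in Ctrl MCM2-2A (-1.29 ± 0.07, adjusted p = 2.19e-09) and 43.9, 45.3 and 58.1 in dPOLE4 MCM2-2A (-1.08 ± 0.13, adjusted p = 1.13e-05). Pold2 was at 80.4, 82.8 and 82.9 CPM in dPOLE4 (-0.84 ± 0.05, adjusted p = 1.14e-09), 46.6, 48.6 and 50.1 in Ctrl MCM2-2A (-1.20 ± 0.07, adjusted p = 1.06e-08) and 49.7, 50.2 and 37.4 in dPOLE4 MCM2-2A (-1.26 ± 0.12, adjusted p = 1.77e-06). Among the 12 shared genes Pold2 varied most between conditions, from -0.63 in Ctrl to -1.26 in dPOLE4 MCM2-2A.

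Of the genes among the 10 largest changes in only some conditions, Gins1 in dPOLE4 went from 33.5, 37.9 and 35.6 to 17.7, 19.6 and 17.9 CPM (-0.97 ± 0.08, adjusted p = 4.45e-08), and Rfc5 from 158, 174 and 171 to 95.4, 104 and 101 CPM (-0.76 ± 0.06, adjusted p = 1.75e-08). Both followed their course in Ctrl. Tk1 in Ctrl MCM2-2A went from 68.9, 69.2 and 63.1 to 32.9, 30.6 and 34.5 CPM (-1.02 ± 0.07, adjusted p = 3.03e-08) and Rrm2 from 387, 356 and 375 to 175, 191 and 196 CPM (-0.98 ± 0.06, adjusted p = 1.86e-08). In dPOLE4 MCM2-2A, Rrm2 went from 378, 391 and 404 to 214, 220.4 and 246 CPM (-0.81 ± 0.09, adjusted p = 4.50e-06) and Pold1 from 201, 185 and 167 to 119, 119 and 87.8 CPM (-0.79 ± 0.12, adjusted p = 0.000102). Rrm2 was also DE lower in dPOLE4, at -0.63, and stood at -0.57 in Ctrl, while Pold1 was at -0.25 in Ctrl and -0.52 in dPOLE4. The rise of Gins3 was DE in dPOLE4 MCM2-2A, from 17.2, 15.2 and 16.6 to 25.0, 27.8 and 28.3 CPM (0.70 ± 0.10, adjusted p = 7.88e-05), and was 0.19 in Ctrl, 0.34 in dPOLE4 and 0.48 in Ctrl MCM2-2A.

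By role, licensing genes were DE lower 5, 5, 6 and 5 times of 9 in Ctrl, dPOLE4, Ctrl MCM2-2A and dPOLE4 MCM2-2A, and helicase activation and firing genes 3, 4, 5 and 3 times of 7. The clamp and its loader gave 2, 2, 3 and 2 of 6, and primase and polymerases 3, 3, 4 and 3 of 7. RPA gave 1 of 3 and the fork group 1 of 4 in every condition, which were Rpa2 and Tipin. Nucleotide supply gave 1, 2, 2 and 2 of 4, and flap removal and ligation 0, 1, 0 and 0 of 2. The latter was Lig1 in dPOLE4, at -0.59, which lost its call in 4 alternative fits. For Rpa1 the T60 values differed in sign between conditions, at 0.21 in Ctrl, 0.26 in dPOLE4, -0.22 in Ctrl MCM2-2A and 0.21 in dPOLE4 MCM2-2A.

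**Figure D3:**
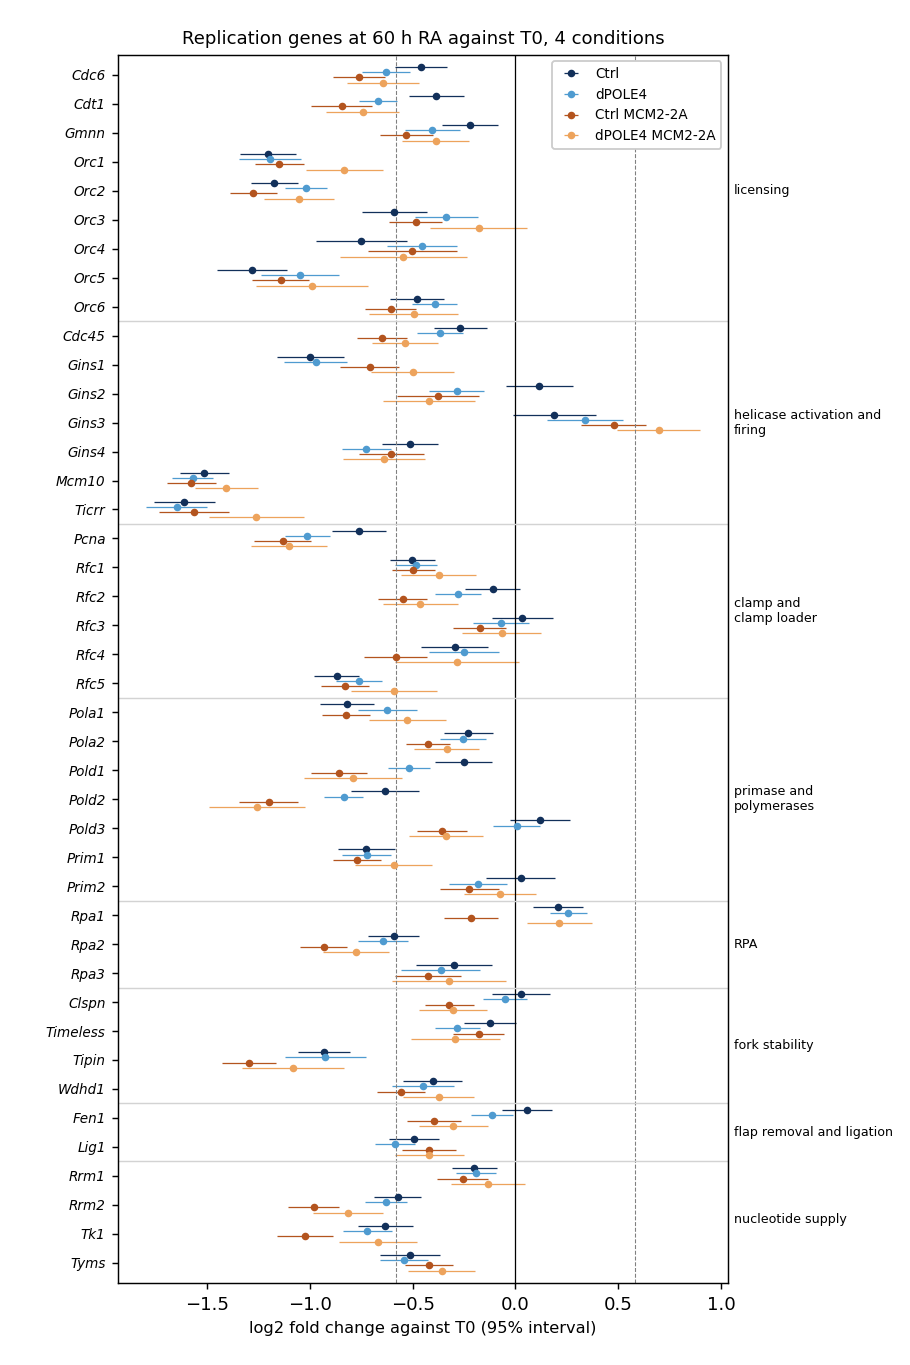
Log2 fold change between T60 and T0 (horizontal axis) of the 42 genes in Ctrl, dPOLE4, Ctrl MCM2-2A and dPOLE4 MCM2-2A cells, with bars for the 95% interval (3 libraries at each time). All 4 values lie below 0 for 34 of the 42 genes, with Ticrr between -1.65 and -1.26 and Pold2 more spread, between -1.26 and -0.63, while Gins3 is above 0 in each condition.

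Summed over the 42 genes, the share of all counts in Ctrl libraries went from a mean of 0.460% at T0 to 0.503% at T12, 0.483% at T24 and 0.364% at T60. In Ctrl MCM2-2A the means were 0.515%, 0.521%, 0.486% and 0.351%. In Ctrl the share was above its T0 level at T12 and T24, while in Ctrl MCM2-2A it was below its T0 level at T24. Rpa1, the most abundant member in CPM in these groups, was at its peak at T24, and its part in the shares was not tested.

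Promoter sequences of the members that the time course turns on are shown so that the letters behind the motif counts can be seen. RefSeq promoters (GRCm38.p6, 250 bases before to 50 after a listed start site, which need not be the outermost start of the gene) were at hand for 35 of the 42. Capitals mark matches, on either strand, to TTTCCCGC, TTTGGCGC, TTTCGCGC or TTTGCCGC, which are letters of E2F sites, and to CCAAT, the box bound by NF-Y. None of these strings contains another. Ticrr lies at chr7:79659946-79660245 on the + strand, Mcm10 at chr2:5012742-5013041 on the - strand, Orc1 at chr4:108579204-108579503 on the + strand and Rpa1 at chr11:75348334-75348633 on the - strand, and Rfc3, a member that was not DE at T60, lies at chr5:151651159-151651458 on the - strand.
Ticrr: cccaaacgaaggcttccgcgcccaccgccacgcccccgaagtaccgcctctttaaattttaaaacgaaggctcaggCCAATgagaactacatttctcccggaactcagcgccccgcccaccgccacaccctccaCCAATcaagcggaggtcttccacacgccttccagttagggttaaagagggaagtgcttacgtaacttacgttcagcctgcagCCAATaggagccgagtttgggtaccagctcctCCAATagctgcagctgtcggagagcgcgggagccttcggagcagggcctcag
Mcm10: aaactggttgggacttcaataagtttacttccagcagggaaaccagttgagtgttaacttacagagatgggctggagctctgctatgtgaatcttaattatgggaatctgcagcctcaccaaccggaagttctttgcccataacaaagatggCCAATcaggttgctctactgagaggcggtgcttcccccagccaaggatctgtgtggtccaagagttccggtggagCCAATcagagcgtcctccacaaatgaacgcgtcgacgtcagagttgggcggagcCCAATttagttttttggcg
Orc1: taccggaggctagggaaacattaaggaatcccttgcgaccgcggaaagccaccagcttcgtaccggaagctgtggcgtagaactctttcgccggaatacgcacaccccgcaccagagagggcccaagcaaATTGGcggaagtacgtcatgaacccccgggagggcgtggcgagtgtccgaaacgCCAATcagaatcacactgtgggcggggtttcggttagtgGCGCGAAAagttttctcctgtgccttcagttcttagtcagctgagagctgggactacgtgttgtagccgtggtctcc
Rpa1: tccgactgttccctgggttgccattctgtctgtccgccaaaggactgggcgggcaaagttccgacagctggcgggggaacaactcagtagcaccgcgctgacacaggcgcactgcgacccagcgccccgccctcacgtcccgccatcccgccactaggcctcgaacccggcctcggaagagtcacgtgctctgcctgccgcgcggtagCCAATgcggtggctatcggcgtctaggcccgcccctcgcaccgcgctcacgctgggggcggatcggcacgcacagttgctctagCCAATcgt
Rfc3: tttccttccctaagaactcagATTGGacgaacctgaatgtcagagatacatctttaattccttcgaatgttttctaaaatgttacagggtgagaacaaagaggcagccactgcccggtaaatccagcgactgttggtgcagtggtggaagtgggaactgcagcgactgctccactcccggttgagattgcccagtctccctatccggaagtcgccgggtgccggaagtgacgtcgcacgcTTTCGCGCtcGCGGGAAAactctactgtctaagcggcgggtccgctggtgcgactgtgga

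E2F letters stood in a promoter of 11 of the 35 genes (31.4%) and of 704 of the 27025 genes searched (2.60%). A gene with several promoters was counted once, if any of them held the letters, and these genes have 32851 promoters. Promoters on chromosome 18 were left out of all these totals. CCAAT stood in 20 of the 35 genes (57.1%), against 41.1% of all genes, and TTTGAA, the cell cycle homology region, in 4 of 35 (11.4%), against 20.2%. Of the 35, 14 were DE in Ctrl at T60 and 21 were not, and E2F letters stood in 3 of the former (21.4%) and 8 of the latter (38.1%). CCAAT was in 10 of the 14 (71.4%) and 10 of the 21 (47.6%), and TTTGAA in 1 and 3. In the sequences shown, Ticrr holds 4 CCAAT matches and Mcm10 3, both without a full E2F match inside the window. Orc1 holds 1 E2F match and 2 CCAAT, Rpa1 2 CCAAT, and Rfc3 2 E2F matches and 1 CCAAT. The Mcm10 window ends in all but the last letter of TTTGGCGC, so whether that string is complete there cannot be seen. These are counts of letters in a fixed window and not measurements of binding.

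Other genes of replication and the cell cycle were counted in the same comparison of T60 with T0 in Ctrl. Of 39 other replication genes, 16 were DE lower and 1 higher, with a median of -0.42. They included Mcm4 (-0.96), Mcm3 (-0.88), Mcm5 (-0.86), Mcm2 (-0.84) and Mcm6 (-0.58) of the helicase, Pole4 itself (-1.19), Dbf4, the activator of the kinase CDC7 (-0.82), Recql4 (-0.97), and Dctd (-1.23), Dctpp1 (-1.12) and Dut (-0.87) of nucleotide metabolism. The gene that rose was Rnaseh2c (0.74), a subunit of RNase H2, whose other subunits Rnaseh2a and Rnaseh2b were among the 16 that were lower. In the other 3 conditions the median of this list was -0.42 in dPOLE4, -0.56 in Ctrl MCM2-2A and -0.55 in dPOLE4 MCM2-2A.

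Of 24 E2F and G1/S regulators, 7 rose and 4 fell, with a median of 0.02, beside 50.6% of all genes DE and 23.7% DE lower in this comparison. Those that rose were the CDK inhibitors Cdkn2c (2.97), Cdkn2a (2.68), Cdkn1b (1.05) and Cdkn1a (0.85), with Rb1 (0.85) and the repressor E2f6 (0.76), beside the cyclin Ccnd2 (2.23). Those that fell were the cyclins Ccnd1 (-2.79) and Ccne1 (-1.05), the kinase gene Cdk6 (-0.94) and E2f4 (-0.75). Of 12 G2/M genes, Aurka (-0.85) and Ccnb1 (-0.81) were DE lower and the median was -0.31.

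Markers of cell state moved with the same comparison. In Ctrl from T0 to T60, 8 of 8 pluripotency markers fell and their summed level went from 3572 to 3704 down to 282 to 375 CPM. All 6 RA response markers rose, from a sum of 7.03 to 8.29 up to 585 to 794 CPM, as did 6 of 6 primitive endoderm markers (13.4 to 24.4 up to 293 to 365), 3 of 4 neural markers tested (112 to 135 up to 291 to 318) and 4 of 5 fibroblast markers (51.0 to 65.0 up to 399 to 544), while 3 of 3 trophoblast markers tested fell (76.7 to 93.8 down to 35.2 to 43.6). The members fell in cultures whose make-up had changed this far, and the part of that change in their levels was not tested.

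The next comparison set Ctrl MCM2-2A against Ctrl, which asks how the MCM2 mutant clone differs in replication genes without POLE4 loss. Wdhd1 stood apart, higher in MCM2-2A at all 5 time points. Rrm2 was higher at T0 and at 96h, Pold2 lower at T60 and at 96h, Cdc6 lower at T24 and Gins1 lower at 96h. No other member was DE at any time.

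At T0, 2 of 42 were DE, both higher, against 18.9% of all genes DE and 9.83% DE higher. Wdhd1 was at 46.0, 45.6 and 46.0 CPM in Ctrl and 114, 112 and 119 in Ctrl MCM2-2A (1.31 ± 0.05, adjusted p = 1.82e-08). Rrm2 was at 238, 239.9 and 255 and 387, 356 and 375 CPM (0.59 ± 0.05, adjusted p = 2.83e-06), and dropped to 0.57, out of the call, when Ctrl replicate 1 or replicate 2 was left out. Rpa2 had the next lowest adjusted p, at 99.3, 100.3 and 100.1 and 146, 136 and 145 CPM (0.50 ± 0.05, adjusted p = 7.78e-06). The groups of these genes did not overlap. By the adjusted p alone, 13 members were higher and 3 lower in MCM2-2A, against 33.6% of all genes in either direction, and the median of the 42 was 0.15, beside -0.02 for all genes.

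In RA, Wdhd1 kept this difference. At T12 it was at 45.5, 48.7 and 46.2 CPM in Ctrl and 113, 117 and 108 in Ctrl MCM2-2A (1.28 ± 0.06, adjusted p = 6.70e-07), the 1 DE member of 42 at that time (background 14.5%). At T24 it was at 42.3, 41.8 and 45.4 and 97.0, 99.9 and 95.2 CPM (1.2 ± 0.05, adjusted p = 4.25e-11), and at T60 at 33.0, 36.8 and 36.2 and 73.9, 80.6 and 78.4 CPM (1.15 ± 0.07, adjusted p = 2.71e-08). At each time every MCM2-2A library was above every Ctrl library. Cdc6 at T24 was at 143, 147 and 149 CPM in Ctrl and 85.6, 96.2 and 91.1 in Ctrl MCM2-2A (-0.66 ± 0.05, adjusted p = 2.31e-08), which with Wdhd1 made 2 of 42 (background 17.3%). Pold2 at T60 was at 106, 79.1 and 88.8 and 46.6, 48.6 and 50.1 CPM (-0.91 ± 0.09, adjusted p = 1.06e-06), again 2 of 42 with Wdhd1 (background 16.9%). These counts lay below the share of all genes at each time.

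The members next in adjusted p were short of the fold cutoff. At T12 these were Pold2 (-0.53 ± 0.07, adjusted p = 0.000148), at 136, 153 and 132 CPM in Ctrl and 95.7, 95.9 and 98.6 in Ctrl MCM2-2A, and Rrm2 (0.40 ± 0.06, adjusted p = 0.000317), at 276, 263 and 264 and 342, 362 and 347 CPM. Pold2 at T24 was at 123, 132 and 123 and 94.2, 94.9 and 84.0 CPM (-0.44 ± 0.06, adjusted p = 4.70e-06), and Cdc6 at T60 at 108, 105 and 114 and 72.0, 78.5 and 77.2 CPM (-0.51 ± 0.06, adjusted p = 1.26e-05). Pold2 was thus on the lower side in MCM2-2A at T12 and T24, before it was called, and Cdc6 at T60, after it was called.

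At 96h, 4 of 42 were DE, against 15.7% of all genes. Wdhd1 was at 46.4, 42.3 and 46.1 CPM in Ctrl and 104, 92.4 and 101 in Ctrl MCM2-2A (1.16 ± 0.09, adjusted p = 1.68e-06), and Rrm2 at 240.5, 219 and 216 and 367, 309.6 and 336 CPM (0.60 ± 0.09, adjusted p = 0.000147). Gins1 was at 36.5, 37.4 and 33.5 and 17.5, 20.4 and 23.4 CPM (-0.77 ± 0.12, adjusted p = 0.000252), and Pold2 at 133, 146 and 146 and 80.1, 96.3 and 100.1 CPM (-0.60 ± 0.09, adjusted p = 0.000303). None of these groups overlapped. Rrm2 and Pold2 rested on the choice of libraries, at 0.53 and -0.52 without Ctrl MCM2-2A replicate 1. Without Ctrl replicate 2, where they were at 0.58 and -0.58, 2 genes were called, and Rrm2 was at 0.57 without Ctrl replicate 3.

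The position of these genes was set beside medians by chromosome. Over all genes tested at T0, the median difference between the clones was -0.48 on chromosome 11, 0.24 on chromosome 14 and 0.56 on chromosome 15, and between -0.17 and 0.06 on each of the other 17 chromosomes. At T60 the 3 medians were -0.55, 0.29 and 0.47. Pold2 and Cdc6 lie on chromosome 11, with Rpa1 and Tk1, and Wdhd1 is on chromosome 14 (47240944 to 47276857, - strand, mm10). Leaving out members on these 3 chromosomes left 1 DE member at T0, none at T12, T24 and T60, and 2 at 96h.

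Genes near Wdhd1 were looked at in the same comparison. Within 1 Mb, all 8 other genes tested at higher coordinates were higher in MCM2-2A at T0, by 0.30 to 1.22 with a median of 0.94, while the 8 at lower coordinates had a median of -0.01 and ranged from -1.37 (Samd4) to 1.98 (Gch1). Gch1, the nearest gene tested on that side, was higher in MCM2-2A at all 5 time points (1.98, 2.01, 2.43, 1.28 and 2.18 at T0, T12, T24, T60 and 96h). The genes at higher coordinates were higher in 8 of 8 cases at each of the 5 time points, with medians from 0.92 to 1.02, and the 7 or 8 tested at lower coordinates had medians of 0.01, 0.02, 0.00 and 0.35 at T12, T24, T60 and 96h. Copy number and the genotype of this region were not measured here, and their part in the Wdhd1 difference was not tested.

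**Figure D4:**
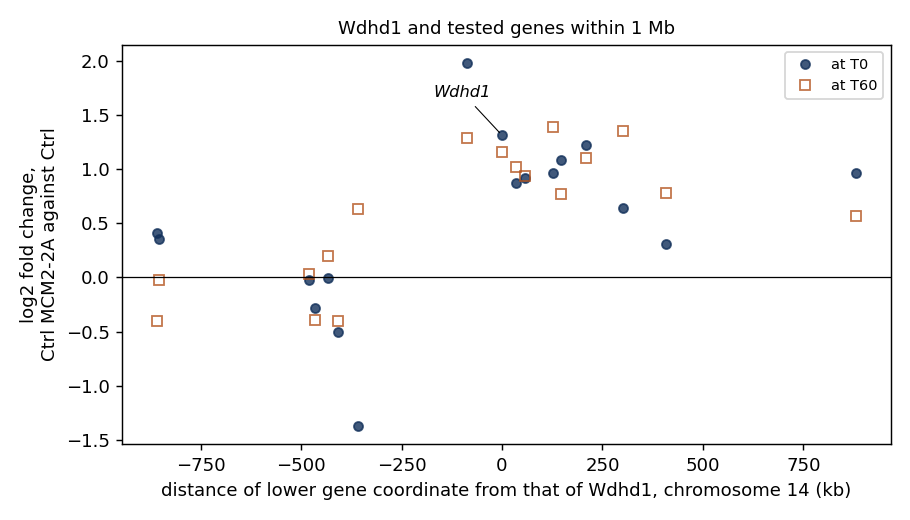
Log2 fold change between Ctrl MCM2-2A and Ctrl (vertical axis) at T0 (dots) and T60 (squares) of the genes tested within 1 Mb of Wdhd1, by distance in kb from it. All 8 genes on the side of higher coordinates lie above 0 at T0, with a median of 0.94, and the 8 on the other side have a median of -0.01 and reach from -1.37 (Samd4) to 1.98 (Gch1).

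Mcm2 RNA, which stands outside the 42 but names the mutant, was 497 ± 10.7 CPM in Ctrl and 311 ± 34.2 in Ctrl MCM2-2A at T0 (SD, n = 3), and Pole4 RNA was 33.1 ± 1.03 CPM in Ctrl MCM2-2A against 52.4 ± 2.28 in Ctrl. With these, 2 of the 39 other replication genes were DE lower in the mutant at T0 and 3 were higher.

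Whether the RA response itself differed between backgrounds was tested as the difference of the T60 against T0 changes, Ctrl MCM2-2A minus Ctrl. Subunits of polymerase delta stood at the head of the list. Pold1 and Pold2 were DE in this test (2 of 42, against 9.1% of all genes) and Pold3 was past the adjusted p. In all, 14 members were past the adjusted p, each with the more negative change in MCM2-2A, against 6.93% of all genes in that direction. The median over the 42 was -0.21 and 32 of 42 were negative, with no median or sign count of all genes to set beside them.

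Pold1 in Ctrl was at 157, 158 and 154 CPM at T0 and 148, 119 and 132 at T60, and in Ctrl MCM2-2A at 202, 187 and 169 and 106, 97.8 and 102 CPM. The difference of the changes was -0.64 ± 0.10 (adjusted p = 0.000141). Pold1 thus started above Ctrl and ended below it in the mutant. Pold2, which in Ctrl went from 136, 149 and 136 to 106, 79.1 and 88.8 CPM, went in Ctrl MCM2-2A from 125, 107 and 105 to 46.6, 48.6 and 50.1 CPM, a difference of -0.59 ± 0.12 (adjusted p = 0.00114). Pold3 went from 49.8, 55.1 and 58.3 to 57.2, 59.0 and 64.3 CPM in Ctrl and from 63.5, 64.1 and 63.2 to 51.7, 47.7 and 48.3 in Ctrl MCM2-2A, a difference of -0.51 ± 0.10 (adjusted p = 0.00083). Pold3 was therefore on the higher side after RA in Ctrl and on the lower side in the mutant. The fold cutoff was narrow here, since between 0 and 3 members were DE when 1 library was left out, and none without Ctrl T60 replicate 1, Ctrl MCM2-2A T0 replicate 1 or Ctrl MCM2-2A T60 replicate 2.

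The other 11 members past the adjusted p covered lagging strand and clamp functions (Fen1, Rfc2 and Pcna), the helicase and its loading (Cdc45 and Cdt1), RPA (Rpa1 and Rpa2), nucleotide supply (Rrm2 and Tk1) and the fork (Tipin and Clspn), with differences from -0.49 to -0.37. For Rpa1 the T0 libraries of the backgrounds overlapped, while in RA each Ctrl MCM2-2A library was below each Ctrl library of the same time. Rpa1 in Ctrl MCM2-2A was at 664, 661 and 684 CPM at T12, 718, 712 and 717 at T24 and 390.2, 384 and 383 at T60. At T60 the backgrounds also differed in cell state markers. The pluripotency sum was 654 to 825 CPM in Ctrl MCM2-2A, against 282 to 375 in Ctrl, with 7 of 8 markers DE higher, the neural sum 199 to 231 against 291 to 318, the primitive endoderm sum 527 to 585 against 293 to 365, and the fibroblast sum 205 to 213 against 399 to 544. The part of these differences in the members' values was not tested.

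No replication gene was DE after loss of POLE4. In each of the 10 comparisons of dPOLE4 with Ctrl on the same background, the count was 0 of 42 by edgeR and 0 by DESeq2. The 95% bound farthest from 0 over the 42 log2 fold changes was -0.44, 0.34, -0.33, -0.36 and 0.42 on the wild-type background at T0, T12, T24, T60 and 96h, and -0.48, 0.40, 0.47, 0.56 and -0.59 on the MCM2-2A background. At an unadjusted p under 0.05, 9, 2, 2, 5 and 5 members passed on the wild-type background and 4, 5, 15, 13 and 3 on the MCM2-2A background. The same p was reached by 11.6%, 6.42%, 7.6%, 14.3% and 12.3% of all genes on the wild-type background and 13.5%, 17.6%, 21.1%, 23.3% and 11.5% on the MCM2-2A background, and the members' counts stood farthest above these shares at T24 in MCM2-2A and at T0 with wild-type MCM2. The Ctrl libraries of these comparisons are those used in the comparison of the backgrounds.

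On the wild-type background the share of all genes that were DE was 0% at T0, T12, T24 and 96h and 0.193% at T60. The members with the lowest adjusted p at T0 were Fen1, at 93.5, 92.2 and 89.0 CPM in Ctrl and 105, 102 and 108 in dPOLE4 (0.19 ± 0.05, adjusted p = 0.356), Orc4, at 45.4, 46.7 and 44.7 and 34.99, 43.3 and 35.2 (-0.28 ± 0.08, adjusted p = 0.359), and Pold1 (0.15 ± 0.05, adjusted p = 0.365). At T12 they were Rrm2 (0.20 ± 0.05, adjusted p = 0.552), Ticrr (0.16 ± 0.06, adjusted p = 0.755) and Prim2 (0.13 ± 0.06, adjusted p = 0.776), and at T24 Rrm2 (0.13 ± 0.05, adjusted p = 0.613), Rpa1 (0.11 ± 0.05, adjusted p = 0.643) and Rfc5 (-0.10 ± 0.05, adjusted p = 0.695). None of these differences could be told from the spread between libraries after adjustment. At T60 the lowest were Orc6, at 43.7, 45.2 and 48.4 CPM in Ctrl and 51.3, 52.2 and 50.9 in dPOLE4 (0.19 ± 0.07, adjusted p = 0.182), Cdt1 (-0.17 ± 0.06, adjusted p = 0.205) and Rpa1 (0.15 ± 0.06, adjusted p = 0.212), and at 96h Tk1, at 65.4, 62.8 and 54.7 and 73.0, 76.1 and 66.9 CPM (0.25 ± 0.08, adjusted p = 0.265), Rfc4 (-0.24 ± 0.09, adjusted p = 0.31) and Pola2 (0.18 ± 0.07, adjusted p = 0.335). The members' medians at T0 and T60 were 0.04 and -0.00.

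On the MCM2-2A background 0.0715%, 0.404%, 1.02%, 2.25% and 0.304% of all genes were DE at T0, T12, T24, T60 and 96h. Members past the adjusted p, short of the fold cutoff, were found at T60 only, where Rpa1 was at 390.2, 384 and 383 CPM in Ctrl MCM2-2A and 491, 527 and 544 in dPOLE4 MCM2-2A (0.43 ± 0.06, 95% interval from 0.31 to 0.56, adjusted p = 0.00205) and Ticrr at 97.0, 94.2 and 85.4 and 120.2, 124 and 117 CPM (0.38 ± 0.07, 95% interval from 0.25 to 0.52, adjusted p = 0.00624). These 2 of 42 stood beside 3.46% of all genes past the adjusted p. Both were higher after POLE4 loss in all 3 libraries, as was Orc1, at 46.3, 49.9 and 49.97 and 57.98, 58.1 and 65.7 CPM (0.32 ± 0.08, adjusted p = 0.0278). Of the 42 genes, 38 had a positive fold change at T60, with a median of 0.11, beside 0.00 for all genes tested.

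At the other times the lowest adjusted p on this background belonged to Pola1 (-0.22 ± 0.07, adjusted p = 0.178), Orc3 (-0.29 ± 0.09, adjusted p = 0.193) and Gins1 (-0.18 ± 0.08, adjusted p = 0.358) at T0, and to Rrm2 (0.21 ± 0.05, adjusted p = 0.0547), Pola1 (-0.22 ± 0.07, adjusted p = 0.117) and Ticrr (0.19 ± 0.06, adjusted p = 0.136) at T12. At T24 Rrm2 was at 245, 266 and 247 CPM in Ctrl MCM2-2A and 309, 297 and 310.4 in dPOLE4 MCM2-2A (0.28 ± 0.06, adjusted p = 0.0132), followed by Ticrr (0.26 ± 0.06, adjusted p = 0.0291) and Tk1 (0.25 ± 0.07, adjusted p = 0.0544), and at 96h the lowest were Pola1 (-0.29 ± 0.08, adjusted p = 0.185), Pold3 (-0.21 ± 0.08, adjusted p = 0.303) and Rfc5 (-0.19 ± 0.08, adjusted p = 0.397). The Rrm2 libraries of the 2 groups at T24 did not overlap, but its adjusted p was above 0.01 in edgeR. DESeq2 put Rrm2 and Ticrr past the adjusted p at T24 and Rpa1 and Ticrr at T60, all short of the fold cutoff.

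The effect of POLE4 loss was compared between backgrounds at T0, T60 and 96h. By edgeR no member was past the adjusted p in any of the 3 tests, while DESeq2 put 1 past it at T60, Ticrr, short of the fold cutoff. In edgeR 2, 8 and none were under an unadjusted p of 0.05, beside 5.39%, 10.1% and 3.7% of all genes. Of all genes, 0.00526%, 0.116% and 0% were past the adjusted p and 0.00526%, 0.1% and 0% were DE. At T60 the largest difference was that of Ticrr (0.41 ± 0.09, adjusted p = 0.0442), with Orc1 at 0.34 ± 0.10 (adjusted p = 0.172) and Rpa1 at 0.29 ± 0.08 (adjusted p = 0.14). The median over the 42 at T60 was 0.13, and 39 of 42 were above 0. The median and signs of all genes are not given for this test, so whether the 42 differ from other genes cannot be told.

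Cell state markers moved with POLE4 loss in RA as well. At T60 the neural sum was 260 to 267 CPM in dPOLE4 against 291 to 318 in Ctrl, with 3 of 4 neural markers tested DE lower, and the pluripotency sum was 303 to 365 CPM against 282 to 375. On the MCM2-2A background, dPOLE4 MCM2-2A had a pluripotency sum of 791 to 1003 CPM against 654 to 825 in Ctrl MCM2-2A, with 2 of 8 markers DE higher, a neural sum of 152 to 165 against 199 to 231 and a fibroblast sum of 117 to 135 against 205 to 213. The part of these in the small positive values of the 42 at T60 was not tested.

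**Figure D5:**
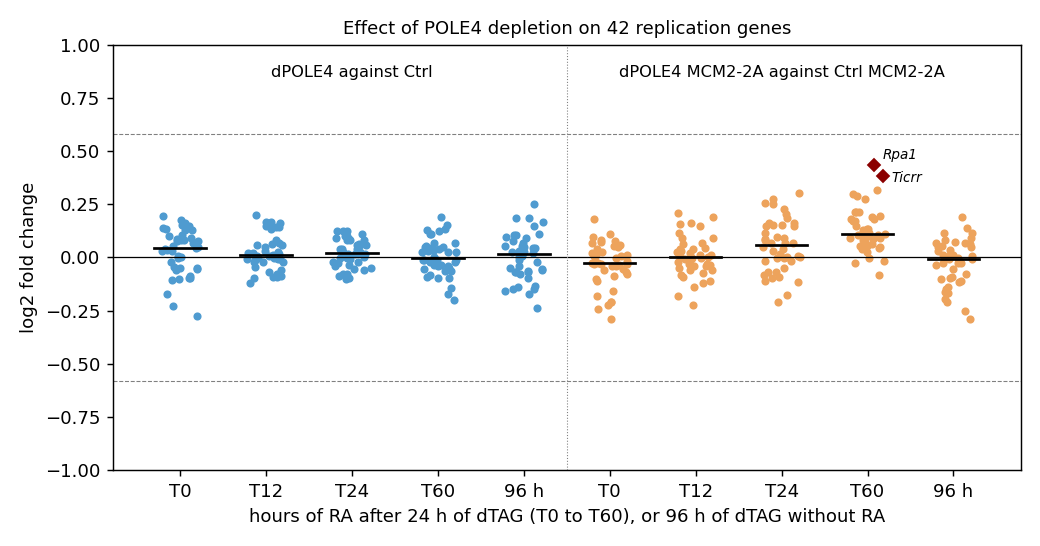
Log2 fold change of the 42 genes between dPOLE4 and Ctrl cells of the same background (vertical axis) in 10 comparisons, with a dot per gene, lines for the medians, dashes at a log2 fold change of 0.58 in either direction and diamonds for an adjusted p under 0.01. No gene crosses the dashes, and the diamonds are Rpa1 (0.43) and Ticrr (0.38) on the MCM2-2A background at T60.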

How the data were processed

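RNA was rRNA-depleted and made into strand-specific paired-end libraries. Per the labels and the study's methods, reads were trimmed (cutadapt 4.2), aligned to mm10 with STAR keeping reads that map to several places, and counted per gene and repeat family. The authors deposited these as raw counts, without normalization, in 2 tables that were analysed separately. Gene IDs were matched to symbols by their annotation.

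Each comparison was fitted on its own libraries (6, or 12 for an interaction) with edgeR 4.0.16 in R 4.3.3, by filterByExpr (minimum count 10, minimum total 15), TMM scaling and the quasi-likelihood test, with Benjamini-Hochberg adjustment over all features kept. DE means an adjusted p under 0.01 and a log2 fold change over 0.58 in size. SE is the fold change divided by the root of F, and the 95% interval is 1.96 SE either way. This is a normal approximation and is narrower than the quasi-likelihood test implies with 3 libraries a group. For Mcm10 in Ctrl MCM2-2A against Ctrl at T0, the interval ran from 0.006 to 0.21. Its unadjusted p in that test was 0.061. CPM used TMM library sizes. The scripts were tested on simulated data. No p was computed for a list.

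The members and lists were chosen with earlier results of these data known. Named with full values were DE members, up to the 10 largest changes, or the 3 with the lowest adjusted p where fewer were DE. The lists were other replication genes, E2F and G1/S regulators, G2/M genes and 6 marker sets.

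Replicate numbers were shared between groups. Same-numbered libraries deviated together (every pair's correlation over 0.1) in Ctrl MCM2-2A against Ctrl at 96h (mean 0.176), dPOLE4 against Ctrl at T0 (0.169) and 96h (0.252), and dPOLE4 MCM2-2A against Ctrl MCM2-2A at T0 (0.261) and 96h (0.274). No 2 libraries of a group matched within sampling noise. The methods describe the libraries as biological replicates, and p-values measure the spread between them. Intervals cover that spread only. Alternatives were DESeq2 1.42.0, its size factors, other filters, 1 fit for all groups, a replicate block, no fold cutoff, leaving out each library, and leaving out 3 chromosomes.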

Additional observations from a re-analysis of the deposited data

Results flagged for a closer look

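The change of 14 members between T0 and T60 differed between the MCM2 backgrounds by a test of the difference itself, and each is named here for that reason. All 14 values, Ctrl MCM2-2A minus Ctrl on the log2 scale, were negative. They were -0.64 for Pold1, -0.59 for Pold2 and -0.51 for Pold3 of polymerase delta, -0.49 for Cdt1, -0.41 for Cdc45, -0.48 for Fen1, -0.47 for Rfc2 and -0.40 for Pcna. For RPA they were -0.45 (Rpa1) and -0.37 (Rpa2), for nucleotide supply -0.44 (Rrm2) and -0.42 (Tk1), and at the fork -0.40 (Tipin) and -0.38 (Clspn). Their adjusted p in edgeR's quasi-likelihood test ranged from 0.000141 (Pold1) to 0.00622 (Clspn). Pold1 and Pold2 were also past the fold cutoff. Pold2, Rpa1 and Tk1 lie on chromosome 11, where the median difference between the clones was -0.48 at T0 and -0.55 at T60. Those medians are differences at a single time, while the 14 values are differences of changes between times. The part of chromosome position in the 14 values was not tested.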

How the results depend on the processing

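With no fold cutoff, counts of members past the adjusted p were 7 at T12, 22 at T24 and 32 at T60 in Ctrl (1, 5 and 16 with it), and 36, 38 and 34 at T60 in dPOLE4, Ctrl MCM2-2A and dPOLE4 MCM2-2A (19, 22 and 18). For Ctrl MCM2-2A against Ctrl they were 16, 9, 17, 13 and 9 at T0, T12, T24, T60 and 96h (2, 1, 2, 2 and 4), for dPOLE4 MCM2-2A against Ctrl MCM2-2A at T60 2 (0), and for the RA interaction 14 (2). Members past it were 16.7% at T12 and 52.4% at T24 in Ctrl, and 38.1% for MCM2-2A at T0, beside 20.1%, 42.7% and 33.6% of all genes. For the later MCM2-2A times, and for T60 in dPOLE4, Ctrl MCM2-2A and dPOLE4 MCM2-2A, no such share is given. Whether those counts exceed that of other genes cannot be told. With no filter on low counts, 1 member each was DE in the MCM2-2A comparison at T0 and in the RA interaction. Without members on chromosomes 11, 14 and 15, the MCM2-2A counts were 1, 0, 0, 0 and 2. With 1 library left out, counts ranged from 1 to 2 (MCM2-2A at T0), 2 to 4 (96h) and 0 to 3 (RA interaction). For T60 against T0 they ranged from 14 to 18 in Ctrl, 18 to 20 in dPOLE4, 20 to 23 in Ctrl MCM2-2A and 15 to 21 in dPOLE4 MCM2-2A.

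Medians of the 42 with 1 library left out ranged from -0.17 to -0.11 at T24 and -0.50 to -0.44 at T60 in Ctrl, -0.63 to -0.56 in Ctrl MCM2-2A and -0.53 to -0.42 in dPOLE4 MCM2-2A at T60. For MCM2-2A against Ctrl they were 0.11 to 0.19 (T0), -0.015 to 0.058 (T24), -0.13 to -0.0909 (T60) and -0.00755 to 0.0592 (96h), for dPOLE4 MCM2-2A against Ctrl MCM2-2A 0.10 to 0.15 (T60) and -0.0418 to 0.0115 (96h), for the difference of dPOLE4 effects at 96h -0.0608 to -0.00281, and for the RA interaction -0.22 to -0.13.

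Of 1151 refits of the 94 DE calls on single genes, 1088 kept the call and 63 lost it, none with a change of sign. In all 63 the adjusted p was at most 0.00747 and the fold change, 0.44 to 0.58 in size, fell short of the cutoff. With the replicate block, which held only a shared number in the comparisons where not every pair's correlation was over 0.1 (mean correlations from -0.13 to 0.27 over all), the count in Ctrl MCM2-2A at T60 was 21 (22 without), where Rfc4 went to -0.58, and no other call changed. Depth did not limit which members could be tested. With 3 libraries a group, the size of difference that can be seen is limited to the intervals given, which are on the narrow side.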
